A study of Homo sapiens with 2 samples.

Results

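The HOX cluster genes were taken as every probe whose gene symbol in the deposited normalized table was HOXA, HOXB, HOXC or HOXD followed by a number. Reported here are 47 probes for 38 genes, of 58199 probes and 34757 named genes on the array. HOX genes encode transcription factors that bind DNA through the homeodomain, a fold of 3 helices that is written in the homeobox of each gene. They lie in 4 clusters on different chromosomes, and genes with the same number in different clusters are paralogues. Along a cluster, low numbers are used toward the head of the embryo and high numbers toward the tail. Polycomb proteins keep unused HOX genes silent, Trithorax proteins keep active ones open, and adult cells and tumour lines hold part of this pattern.

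Both groups were cultures of A375, an established human melanoma line. RNA was collected at 48 h from cells transfected with siRNA against THOC2 (THOC2 siRNA) or with control siRNA (NC), and 1 Agilent SurePrint G3 1-colour array was hybridized for each. THOC2 is a subunit of the THO complex, which acts in mRNA processing and export, and the comparison asks which transcripts differed after its knockdown. There was no replicate, so no test between conditions was possible and every difference below is one between 2 arrays. Which of the 4 listed THOC2 siRNAs was used for the arrays is not named. For both samples the source field names the opposite condition to the title and description, and the titles were followed. On the array they assign to THOC2 siRNA, the 2 probes of THOC2 were lower, with processed signals of 136 on NC and 40.9 on THOC2 siRNA (log2 fold change -1.42), and of 67.3 and 35.1 (log2 fold change -0.63). The scanner software marked 42.3% of probes as well above background on NC and 39.4% on THOC2 siRNA. Of the melanocyte markers, SOX10, MITF, S100B and DCT were above background on both arrays, MLANA on the THOC2 siRNA array only, and PMEL, TYR and TYRP1 on neither. Their log2 fold changes were 0.06 for SOX10, -0.03 for MITF, -0.66 for S100B and 0.75 for DCT. MLANA had a measured difference of 2.98 at a mean log2 signal of 2.89, near the floor. Of markers of other cell types, 2 of 4 for keratinocytes, 1 of 4 for fibroblasts, 3 of 3 for endothelium and 3 of 4 for leukocytes had a probe above background on at least 1 array, with log2 fold changes of 1.06 for KRT14, 1.56 for DCN, -0.34 for KRT10 and 0.43 for PECAM1. The leukocyte markers CD3E, PTPRC and CD14 had 0.87, 0.39 and 0.37. All 3 were dim, with mean log2 signals of 4.62 to 4.94. The endothelial CDH5 and VWF were above background on NC only, with measured differences of -1.35 and -0.40. Their part in the HOX values was not tested.

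The array reads each gene through probes of 60 bases, and the probes that lie in a homeobox are printed because this stretch is the one that paralogues share. Codons of conserved homeodomain residues were found in 9 of 47 HOX probes (19.1%) and in 32 of 58152 other probes (0.0550%), by a list of stretches made with these probes in view. Each is given 5′ to 3′ in the sense of the transcript, with a stretch of those codons in capitals. Other conserved codons are left in lower case. Near its end the HOXC12 probe also holds codons for the residues marked in HOXC10. The capitals mark helix 1 in HOXA9 and HOXC5, helix 2 in HOXA5, HOXC12, HOXD8 and HOXD12, and the DNA-contacting recognition helix or its end in HOXB2, HOXC10 and HOXD9.
HOXA5: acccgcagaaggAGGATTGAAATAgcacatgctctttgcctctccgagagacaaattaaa
HOXA9: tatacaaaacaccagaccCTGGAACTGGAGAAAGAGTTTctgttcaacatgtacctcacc
HOXB2: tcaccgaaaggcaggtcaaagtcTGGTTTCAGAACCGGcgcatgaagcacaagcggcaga
HOXC5: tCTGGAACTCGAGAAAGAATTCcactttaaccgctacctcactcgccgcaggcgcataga
HOXC10: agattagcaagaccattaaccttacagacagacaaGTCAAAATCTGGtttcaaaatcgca
HOXC12: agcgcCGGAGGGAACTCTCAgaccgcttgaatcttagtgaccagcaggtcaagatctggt
HOXD8: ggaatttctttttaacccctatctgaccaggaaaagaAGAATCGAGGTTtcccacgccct
HOXD9: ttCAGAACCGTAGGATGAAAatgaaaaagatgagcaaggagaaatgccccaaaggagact
HOXD12: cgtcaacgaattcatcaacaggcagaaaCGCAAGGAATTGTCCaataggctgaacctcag

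Of the 1081 pairs of HOX probes, the most alike were those of HOXA9 and HOXC5, identical at 74.4% of 43 aligned bases, and those of HOXB2 and HOXC10, at 74.4% of 39 bases. The HOXA9 probe printed above was above background on neither array. How far a probe also binds transcripts of a paralogue was not tested. For the HOX probe with the largest difference between the arrays, bases 16 to 45 are shown.
HOXB3: gacaagatggctaggccatcaccaaccaac
It lies at chr17:46627302-46627361 on the minus strand (hg19, as deposited), and HOXB3 has no other probe on this array. Whether probes lie in exons or untranslated regions was not analysed here.

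A HOX gene is called measured here when at least 1 of its probes was well above background on at least 1 array. By that rule 30 of 38 HOX genes were measured, 27 of them on both arrays and 3 on the NC array only. Of all 34757 named genes on the array, 17514 were measured. Counted by probe, 34 of 47 (72.3%) were measured, against a background of 43.5% over all probes of the array. HOXB had 9 of 10 genes measured, HOXC 8 of 9, HOXA 7 of 10 and HOXD 6 of 9.

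By paralogue group, at least 1 gene was measured in 12 of 13 groups, and all members were measured in 7 of 13. Groups 2, 3, 5, 6, 8, 9 and 10, which cover the front and middle of the clusters and the start of the posterior genes, were measured in full. Group 11 had none of its 3 genes (HOXA11, HOXC11 and HOXD11). In group 1, the most anterior, HOXD1 was measured on the NC array alone and HOXB1 on neither. Among the last groups, HOXC12, HOXB13, HOXC13 and HOXD13 were measured, while HOXD12 and HOXA13 were not. HOXA7 and HOXD4 were not measured either. The 8 unmeasured genes have 1 probe each, with processed signals of 2.92 to 10.2 on NC and 3.19 to 7.68 on THOC2 siRNA. The lowest signal that was marked well above background on any probe was 14.7 on NC and 15.9 on THOC2 siRNA.

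**Figure D1:**
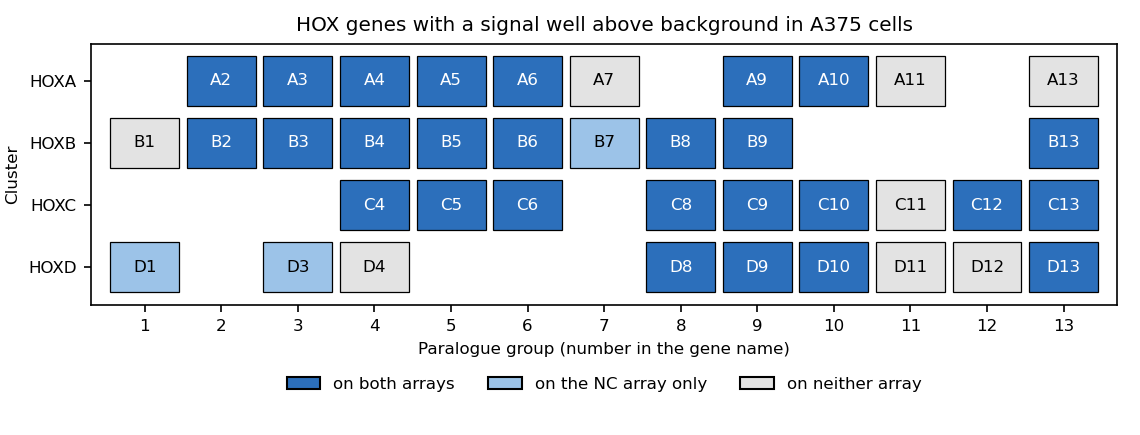
Each box is 1 HOX gene, placed by cluster (rows) and paralogue group (columns), and its colour says on which arrays at least 1 of its probes was well above background. The 27 dark boxes lie in groups 2 to 6, 8 to 10, 12 and 13, light blue boxes mark HOXB7, HOXD1 and HOXD3, and group 11 is grey throughout.

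Which genes count as measured moved with the detection rule. With both arrays required, 27 of 38 genes were left, and with a signal above the negative control spots on either array there were 32, HOXA11 and HOXC11 added. With the scanner's looser mark for a positive and significant signal there were 35, and HOXB1, HOXD4 and HOXD12 were still not measured. The 4 HOX probes measured on 1 array only (HOXB7, HOXD1, HOXD3 and the probe of HOXD9 in its homeobox) were all measured on NC. Over the whole array 2409 probes were measured on NC only and 729 on THOC2 siRNA only.

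THOC2 siRNA was then compared with NC. A log2 fold change is log2 of the processed signal minus the 75th percentile of the array, THOC2 siRNA minus NC, and differences of 2-fold or more were called. No measured HOX probe was called lower and 1 of 34 (2.94%), HOXB3, was called higher. The background over all measured probes was 3.33% called lower and 2.93% called higher. Among the 30 HOX probes measured on both arrays the share called higher was 3.33%, against 0.829% of all such probes. None of the 30 was called lower, against 0.365% of all such probes. With 1 HOX probe called, each HOX share called higher rests on that probe alone.

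The measured HOX genes had a median log2 fold change of 0.07, with 11 below 0 and 19 above, and all measured genes had a median of 0.02. HOXB7, HOXD1 and HOXD3, measured on NC only, enter with their measured differences, HOXD3 below 0 and the others above. Over the 27 HOX genes measured on both arrays the median was 0.09, against 0.04 for all such genes. Before scaling, 26 of the 30 HOX probes measured on both arrays had the lower signal on THOC2 siRNA, and that array was dimmer by 0.31 on the log2 scale at its 75th percentile. After scaling, 9 were below 0 and 21 above. By cluster, the median was 0.15 for HOXA, 0.09 for HOXB, 0.05 for HOXC and -0.07 for HOXD. The HOXD median turned with 1 probe. Over its 4 genes measured on both arrays it was 0.10 when the HOXD9 probe measured on NC only was also left out, which took HOXD9 from -0.15 to 0.18.

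The error known for these values is the technical SD, the scatter of the log2 difference between repeated spots of 1 probe on the same pair of arrays. It was 0.42 at log2 signals below 4, 0.17 from 4 to 6, 0.10 from 6 to 8 and 0.05 above 8, and the class from 4 to 6 rests on 5 repeated probes. It leaves out the difference between cultures. The difference was larger than 3 technical SDs for 10 of 30 HOX probes measured on both arrays (33.3%), 6 of them above 0, and for 33.4% of all such probes.

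**Figure D2:**
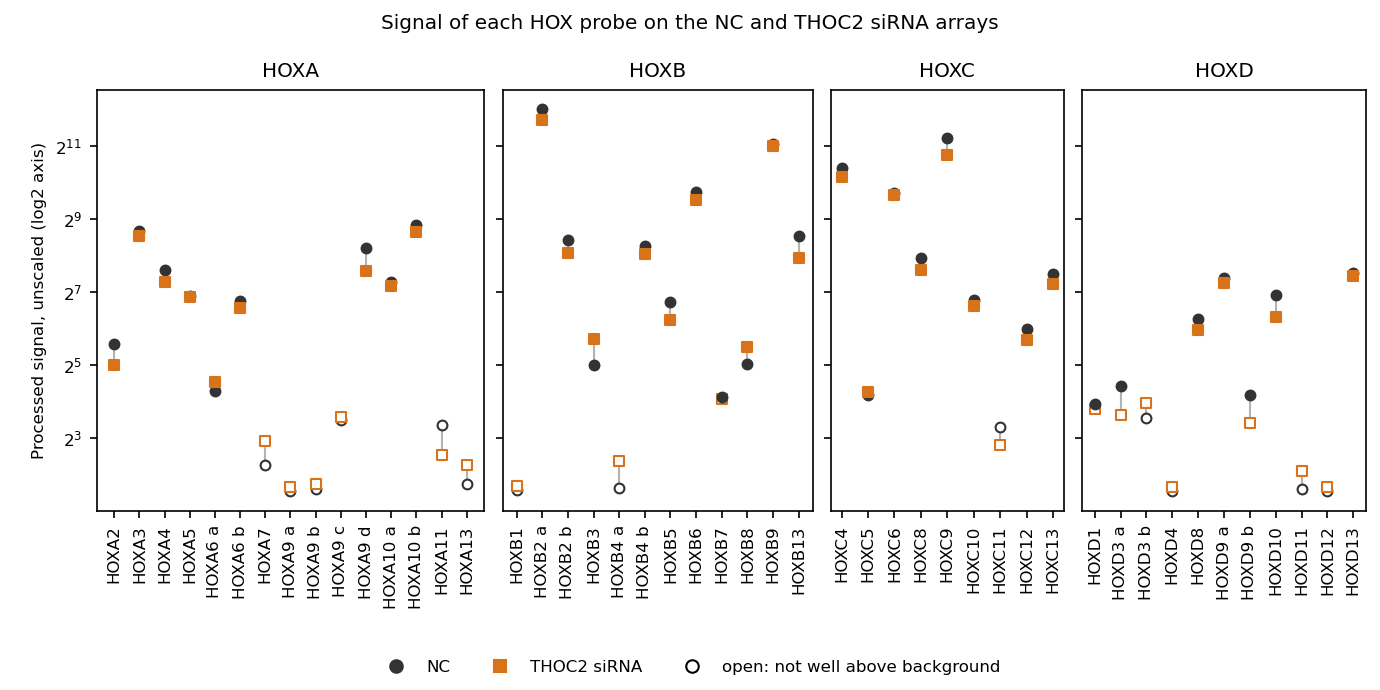
Processed signal of the 47 HOX probes on NC (circles) and THOC2 siRNA (squares), before scaling, by cluster on a log2 axis, with lines joining the arrays and open symbols for signals not well above background. Letters a to d separate probes of the same gene. In 26 of the 30 pairs measured on both arrays the square lies below the circle.

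In the HOXA cluster on chromosome 7, HOXA2 to HOXA6 were measured together with HOXA9 and HOXA10. HOXA2, a hindbrain and branchial arch gene, had a signal of 47.7 on NC and 32.2 on THOC2 siRNA (log2 fold change -0.26, and 0.03 with normexp background correction). HOXA3, needed for thymus and parathyroid formation, had 405 and 371 (0.18). HOXA4 had 194 and 154 (-0.02).

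The HOXA4 probe (chr7:27168252-27168311, minus strand) shares 56 positions with a probe for HOXA-AS2 on the plus strand, a noncoding RNA read in the opposite direction. That probe had 11.5 on NC, not well above background, and 18.1 on THOC2 siRNA. The levels of the 2 transcripts at this position were thus read by separate probes, 1 for each strand.

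HOXA5, a regulator of lung and breast epithelium, had 120 and 117 (0.28). HOXA6 has 2 probes, which gave 19.7 and 23.4 (0.56) and 108 and 94.9 (0.12). Both lay above 0, and the larger difference came from the probe in the class with the larger technical SD (0.17). HOXA9, known for its part in leukaemia, was measured by 1 of its 4 probes (chr7:27203145-27203204), with 295 and 189 (-0.33). Its other probes had signals of 2.94 to 11.4 on NC, so the gene's value rests on that probe. HOXA10, which patterns the uterus and limb, gave 156 and 144 (0.20) with one probe and 460 and 397 (0.10) with the other, which is placed over chr7:27211789-27213023, a span longer than the probe.

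In the HOXB cluster on chromosome 17, every gene but HOXB1 was measured on at least the NC array. HOXB2, a hindbrain gene, has 2 probes, both measured, with 4139 and 3346 (0.003) for the one at chr17:46620127-46620186 and 343 and 270 (-0.04) for the one in the homeobox, printed above. HOXB4, which promotes expansion of blood stem cells, had 307 and 263 (0.09) with one probe, and its other probe was above background on neither array. HOXB5 had 106 and 75.4 (-0.18), and HOXB6 had 857 and 737 (0.09).

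HOXB3 was the HOX probe that passed 2-fold. It had a signal of 32.3 on NC and 52.8 on THOC2 siRNA, a log2 fold change of 1.02 with a technical SD of 0.17, or 2.03-fold. The signal was higher on THOC2 siRNA before scaling as well. Among the 1000 measured probes nearest in signal, the SD of the log2 fold change was 0.50, HOXB3 stood at percentile 97.5, and 2.7% were higher by 2-fold or more. Of the 238 measured probes in its block of the array, 6.30% were higher by 2-fold or more. The log2 fold change was 0.95 after centring each block on its median, and the 2-fold call was lost. It was 0.45 after normexp background correction, where the call was lost as well. That setting adds 50 to every signal, more than the 32.3 of HOXB3 on NC, which shrinks folds at dim probes. The call lost with normexp therefore says little about HOXB3.

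HOXB8, the middle-cluster gene used to immortalize myeloid progenitors, was second, with 32.9 on NC and 45.1 on THOC2 siRNA (log2 fold change 0.76, technical SD 0.17, percentile 94.7 among probes of like signal). Of the measured probes in its block, 10.05% were higher by 2-fold or more, and with normexp its value was 0.39. Of the 30 HOX probes measured on both arrays, 2 (HOXB3 and HOXB8) differed by 1.5-fold or more. That share is near the 6.78% of all probes measured on both.

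HOXB7 had 17.7 on NC and 16.8 on THOC2 siRNA, the latter not well above background, and no fold is given. HOXB9 had 2123 and 2052 (0.26), and HOXB13, a prostate and tail-bud gene, had 372 and 247 (-0.29). HOXB9 and HOXB13 are neighbours in the order of HOXB genes. After scaling they differed in opposite directions, each by more than 3 technical SDs of 0.05, as did 33.4% of all probes measured on both arrays. Before scaling both signals were lower on THOC2 siRNA. Among probes of like signal HOXB9 stood at percentile 85.5 and HOXB13 at 9.7.

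In the HOXC cluster on chromosome 12, every gene but HOXC11 was measured on both arrays. HOXC4 had 1357 and 1136 (0.05), HOXC5 had 18.2 and 19.2 (0.38), and HOXC6 had 845 and 802 (0.23). HOXC8, which patterns the thoracic skeleton, had 244 and 195 (-0.02). HOXC9 had 2401 and 1728 (-0.16), the largest decrease of the cluster. The posterior genes HOXC10 (109 and 98.7, log2 fold change 0.16), HOXC12 (63.7 and 51.5, 0.003) and HOXC13 (180 and 150, 0.05), the last a regulator of hair keratins, differed by less than 2 technical SDs. HOXC6 and HOXC9 were beyond 3 technical SDs, in opposite directions after scaling, and both signals were lower on THOC2 siRNA before it. Among probes of like signal HOXC6 stood at percentile 81.9 and HOXC9 at 11.

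In the HOXD cluster on chromosome 2, HOXD8, HOXD9, HOXD10 and HOXD13 were measured on both arrays, and HOXD genes of the posterior groups shape the limb. HOXD8 had 76.9 and 62.9 (0.02). HOXD9 had 168 and 154 (0.18) with one probe, and its probe in the homeobox had 18.3 and 10.6, above background on NC only. HOXD10 had 121 and 79.2 (-0.31), and HOXD13, mutated in synpolydactyly, had 185 and 175 (0.23).

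The anterior HOXD genes were at the edge of detection. HOXD1 had 15.4 on NC and 14.01 on THOC2 siRNA, above background on NC only, and no fold is given. HOXD3 had 21.7 on NC and 12.4 on THOC2 siRNA, where it was not well above background. Against the lowest signal with that mark on THOC2 siRNA, each after scaling, it was 1.103-fold lower. This is an approximate bound, not a strict one, since some brighter probes lacked the mark, such as HOXB7 at 16.8 on THOC2 siRNA. The second HOXD3 probe was above background on neither array.

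**Figure D3:**
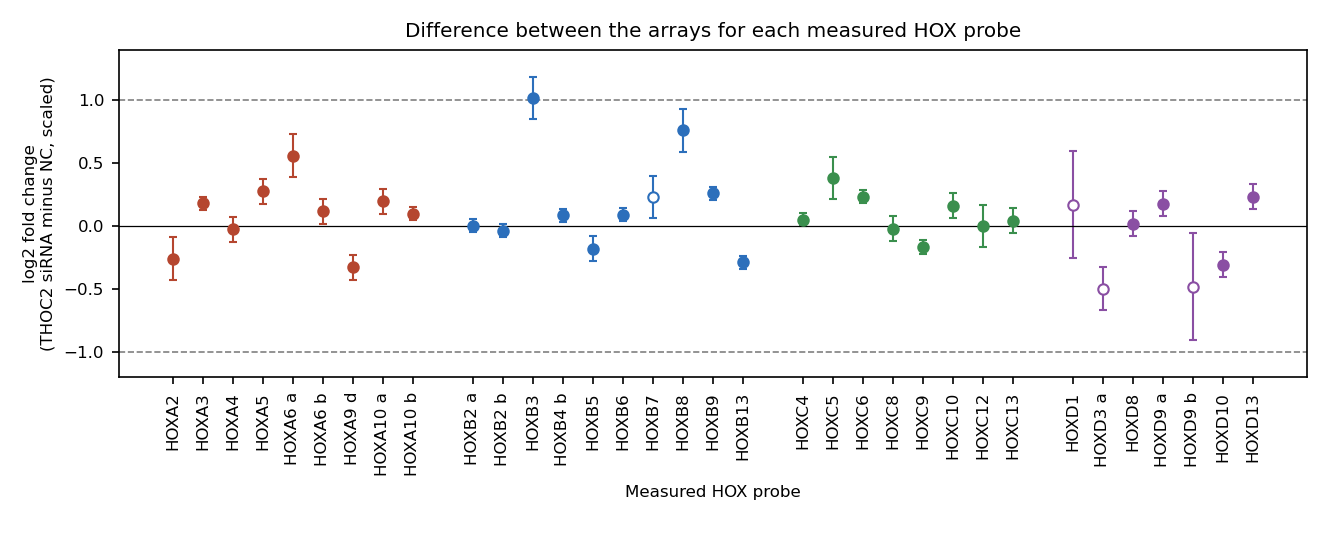
Log2 fold change (THOC2 siRNA minus NC, scaled) of the 34 measured HOX probes, by cluster, with bars of 1 technical SD from repeated spots and dashed lines at 2-fold. Open points were above background on NC only, and their values are measured differences, not bounds. HOXB3 (1.02) lies at the upper line and no probe reaches the lower one.

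The scatter of HOX probes was set beside that of all probes. At a mean log2 signal of 6 or more, 24 HOX probes were measured on both arrays, and the SD of their log2 fold changes was 0.18, against 0.26 over 16025 probes. The median absolute log2 fold change was 0.16 for these HOX probes, against 0.15, and this cut leaves out HOXB3 and HOXB8. Over all 30 HOX probes measured on both arrays, dimmer ones included, the SD was 0.30, against 0.32. These are descriptions of 2 arrays, and no test was made.

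**Figure D4:**
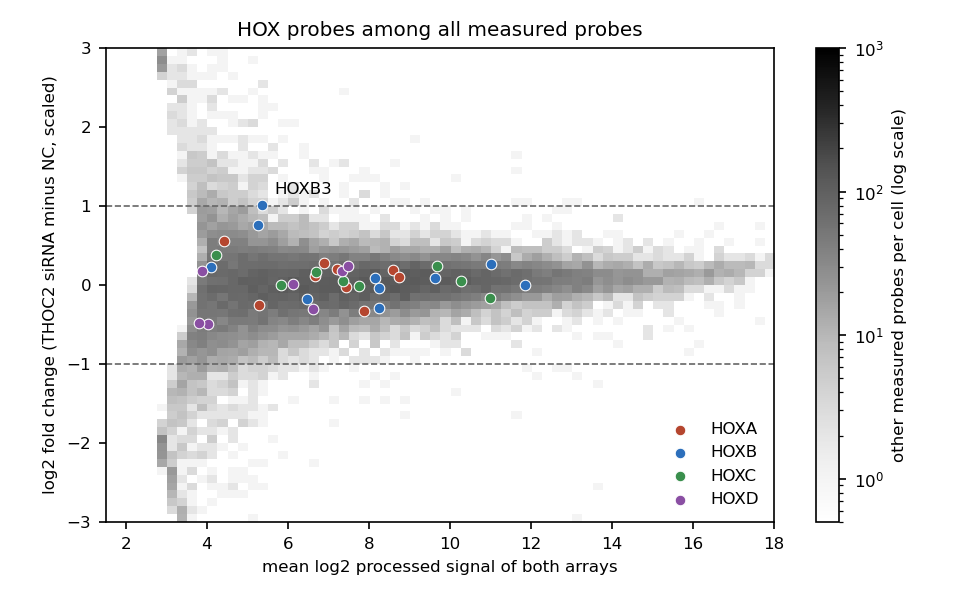
Log2 fold change against mean log2 processed signal, with the 34 measured HOX probes in colour over a grey density of all other measured probes, and dashed lines at 2-fold. HOXB3 and HOXB8 lie at low signals, where the grey cloud is wide, and 331 other probes fall outside the plotted range.

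Genes that act with or upon HOX genes were counted from lists drawn up with earlier results of these arrays known, and in all 6 lists no measured gene passed 2-fold in either direction. Of all genes measured on at least 1 array 3.34% were lower and 2.96% higher by 2-fold, but 84 of the 87 measured list genes were measured on both arrays, where the shares were 0.352% and 0.837%, so a count at or near 0 is that of the background. TALE cofactors, which bind DNA beside HOX proteins, had 8 of 9 genes measured and a median log2 fold change of 0.04, 4 of them below 0. PBX4 had 169 and 134 (-0.03) and PKNOX1 had 293 and 267 (0.18). All 29 Polycomb genes were measured, with a median of 0.06 and 13 below 0. The PRC2 subunit EED had 3118 and 2699 (0.10), the histone-binding RBBP7 had 5491 and 5164 (0.22), and the PRC1 subunit CBX6 had 5779 and 4509 (-0.05). All 19 Trithorax and H3K27 demethylase genes were measured, with a median of 0.10 and 7 below 0. WDR5, a core subunit of the H3K4 methyltransferases, had 3206 and 2774 (0.10), and DPY30 had 1971 and 1535 (-0.05).

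Noncoding RNAs of the HOX clusters had 14 of 16 genes on the array measured, with a median of -0.14 and 9 of 14 below 0, where HOX genes had 11 of 30 below 0. HOXD-AS2 had 2375 on NC and 1543 on THOC2 siRNA (-0.31). HOXB-AS1 had 743 and 479 with one probe and 328 and 212 with the other (both -0.32). HOTAIRM1, an antisense RNA of the HOXA cluster, had 229 and 164, 1162 and 823, and 128.2 and 85.3 with 3 probes (mean -0.21). HOXC13-AS had 309 and 220 (-0.18). Those 4 had the highest mean signals, and the largest increases of the list were those of HOXA-AS2 (0.60 over 2 probes, 1 of them measured on THOC2 siRNA only) and HOXA11-AS (0.55, with probes at 0.51 and 0.59), named after their values were seen. The largest decrease, also named after it was seen, was that of HOXC-AS2, with 28.8 on NC and 15.8 on THOC2 siRNA (-0.55). The latter signal was not well above background. HOTTIP and HOXA-AS3 were not measured. No test of the lists against each other was made.

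Genes beside the clusters and the related ParaHox genes had 7 of 14 measured, with a median of 0.03. Over the whole array 17514 of 34757 named genes were measured. MTX2, next to HOXD, had 1516 and 1250 (0.03), and SKAP2, next to HOXA, had 615 and 546 (0.14). Genes that make, sense or clear retinoic acid, a known inducer of HOX genes, had 10 of 16 measured and a median of -0.02. ALDH1A3, which makes retinoic acid, had 33590 and 22267 (-0.28), RARG had 1277 and 1233 (0.26) and RXRA had 1305 and 1026 (-0.04).

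**Figure D5:**
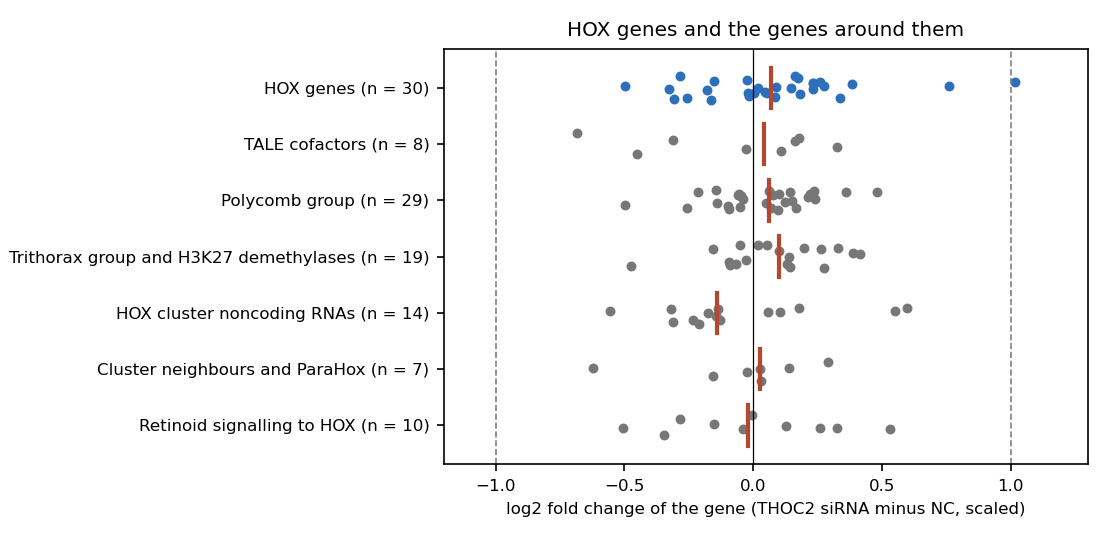
Log2 fold change of each measured gene (points) for the HOX genes and 6 lists of genes around them, with the median of each as a vertical bar and dashed lines at 2-fold. The medians run from -0.14 for the noncoding RNAs to 0.10 for the Trithorax list, and of all genes plotted only HOXB3 reaches a line.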

How the data were processed

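RNA of A375 cells was measured on 1 array for NC and 1 for THOC2 siRNA. The authors scanned both with Agilent Feature Extraction 10.7.1.1 and deposited intensity values per spot (background-subtracted processed signal, with marks for outliers and background) and a table of normalized log2 values with gene symbols and hg19 positions. A deposited table of their comparison, with fold changes and a score, was not used. Its values are a linear fold with a sign.

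Control spots and spots with an outlier mark on either array (147 on NC and 168 on THOC2 siRNA) were removed. No spot was saturated. Repeated spots were averaged as log2 values. Log2 of the processed signal minus the 75th percentile of the array was compared, and measured probes were averaged for each gene. The technical SD is the median over repeated probes of 4 signal classes. The comparison was also run on simulated data. No setting or result of that run is given here, so none of the reported differences rests on it.

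All HOX genes but 1, which is not reported here, are accounted for, measured ones with both signals. Other genes named are THOC2, list members that moved by 2-fold or more, and examples among the up to 4 members per list with the highest mean log2 signal. HOXA-AS2 was added for its overlap with the HOXA4 probe, HOXA11-AS and HOXC-AS2 after their values were seen, and MLANA, KRT14, DCN and the other markers for the check of cell type. Members and lists were chosen with earlier results of these data known. Alternatives were quantile normalization, median scaling, lowess centring (span 0.3), normexp (offset 50), other detection rules, the authors' normalized values, centring by 128 blocks, dim signals at their limit, the brightest probe of each gene and a 3-fold threshold. Python 3.11.15 (numpy 2.4.6, pandas 2.3.3, statsmodels 0.14.6, Biopython 1.88) and R 4.3.3 with limma 3.58.1 were used. Precision is limited by there being 1 array for each condition.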

Additional observations from a re-analysis of the deposited data

How the results depend on the processing

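The count of HOX probes lower by 2-fold or more was 0 in every setting tried. The count higher by 2-fold or more, 1 as reported (HOXB3), was 0 with normexp background correction, 0 after centring by block and 0 at a 3-fold threshold, and 2 with no detection filter, which added a HOXB4 probe that was above background on neither array. It stayed at 1 in the other settings. Over all probes, normexp gave 33 lower and 79 higher in place of 844 and 743, and no detection filter gave 1929 and 3127. The normexp offset of 50 is added to every signal and shrinks folds at dim probes, so its count says little about HOXB3. The median log2 fold change of the HOX genes was 0.17 with no detection filter, where that of all probes was 0.31. HOXB3 ran from 0.45 to 1.03 over the settings. With normexp, 16 of 30 HOX genes moved by more than their technical SD, and in every other setting at most 5 did. The sign of 11 of 30 HOX genes turned in at least 1 setting, none of them a 2-fold call. With normexp it turned for 5: HOXA2 (-0.26 to 0.03), HOXB4 (0.09 to -0.01), HOXB6 (0.09 to -0.04), HOXC4 (0.05 to -0.07) and HOXD9 (-0.15 to 0.05). With no detection filter it turned for HOXA9 (-0.33 to 0.22) and HOXD3 (-0.50 to 0.11), whose means then take in probes above background on neither array. HOXC4 also turned with lowess centring, with quantile normalization and in the normalized values of the authors, HOXD9 also wherever its probe measured on NC only was left out or set to its limit and with lowess centring, and HOXB2, HOXC12, HOXC13 and HOXD8, all within 0.05 of 0, in other settings. No paired analysis was possible because there was 1 array per condition. The spread between cultures is not known from these arrays, and a probe not marked well above background on 1 array gives at most an approximate bound.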
